A study of Mus musculus with 4 samples.

Results

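The genes of bone morphogenetic protein (BMP) and transforming growth factor beta (TGF-beta) signalling, together with the Id genes, were examined in 4 mouse cerebellar tumors. They were chosen by symbol: ligands of the BMP, GDF, activin and TGF-beta families, their receptors, the Smad proteins, secreted antagonists, and Id1 to Id4, with Gdf10 left out. The array table held 39 such genes, read by 74 probe sets, among the 13321 genes that probe sets with a single symbol named. All tumors carry the genotype given as Chd7-het in the labels, on a mixed CD1xC57BL/6 strain background, and each was read on its own Affymetrix Mouse Genome 430 2.0 array. They are called tumors 1, 2, 4 and 5 after their sample numbers. Normal cerebellum and other genotypes are not among the samples, so an effect of Chd7 on these genes could not be measured. The labels used here give neither the age of the mice nor what made the tumors arise.

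Ligands of this superfamily bind pairs of type I and type II receptor kinases, which phosphorylate receptor Smads. Smad1, Smad5 and Smad9 carry BMP signals, Smad2 and Smad3 carry TGF-beta and activin signals, and each joins Smad4 to regulate genes in the nucleus. The Id genes are classical BMP targets: their proteins have a helix-loop-helix but no DNA-binding region, and hold bHLH transcription factors in inactive pairs. In the developing cerebellum, BMPs are known to oppose the SHH-driven division of granule cell progenitors and to lower the bHLH factor Atoh1.

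Values are log2 signals of MAS5, the Affymetrix summary of a probe set on its own array. A level of 5.12, called the floor, marks the low range in which signals are noisy, and the mean over tumors had to reach 5.87, called the filter, for a gene to be tested. A gene was represented by its probe set of highest mean. Of the 39 genes, 20 passed the filter and 19 did not. Closest to the filter stood Acvr2b (mean 6.12) and Bmp5 (5.99) above it, and Gdf9 (5.27) and Tgfbr3 (5.26) below it. On each array, 59.1% to 61.3% of all probe sets exceeded the floor. In tumor 1, the summed markers of mature neurons and of oligodendrocytes had their highest level, and in tumor 5 those of choroid plexus; their levels are given beside the results they accompany. The 10 markers of granule cell progenitors measured were above the floor in every tumor.

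The upstream sequences of the genes on which the results turn are shown first. They are the 250 bases before the transcription start of Bmp5, the ligand that varied most between tumors, and of the 3 Id genes that have an entry in the RefSeq promoter table of GRCm38.p6, in which 16 of the 20 genes past the filter were found. The Bmp5 window lies at chr9:75775115-75775364 on the + strand, that of Id2 at chr12:25096093-25096342 on the - strand, that of Id3 at chr4:136143572-136143821 on the + strand and that of Id4 at chr13:48260866-48261115 on the + strand. Capitals mark matches to CAGAC (a Smad-binding element), GGCGCC (a GC-rich element known from BMP-responsive enhancers), CANNTG (the E-box bound by bHLH factors) or TATAAA, searched on both strands.
Bmp5: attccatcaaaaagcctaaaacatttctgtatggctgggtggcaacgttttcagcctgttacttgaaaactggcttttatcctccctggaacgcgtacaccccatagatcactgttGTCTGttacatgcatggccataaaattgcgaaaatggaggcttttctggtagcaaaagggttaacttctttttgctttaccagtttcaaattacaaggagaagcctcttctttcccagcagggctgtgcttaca
Id2: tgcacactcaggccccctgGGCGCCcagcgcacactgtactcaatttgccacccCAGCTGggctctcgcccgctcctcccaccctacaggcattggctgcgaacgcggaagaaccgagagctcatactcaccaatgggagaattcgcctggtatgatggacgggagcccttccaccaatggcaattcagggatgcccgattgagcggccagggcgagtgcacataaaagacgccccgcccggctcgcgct
Id3: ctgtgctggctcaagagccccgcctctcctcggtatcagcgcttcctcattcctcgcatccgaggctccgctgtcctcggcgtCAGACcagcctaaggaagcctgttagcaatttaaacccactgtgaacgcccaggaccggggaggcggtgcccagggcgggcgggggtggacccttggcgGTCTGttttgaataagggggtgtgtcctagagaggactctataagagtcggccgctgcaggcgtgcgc
Id4: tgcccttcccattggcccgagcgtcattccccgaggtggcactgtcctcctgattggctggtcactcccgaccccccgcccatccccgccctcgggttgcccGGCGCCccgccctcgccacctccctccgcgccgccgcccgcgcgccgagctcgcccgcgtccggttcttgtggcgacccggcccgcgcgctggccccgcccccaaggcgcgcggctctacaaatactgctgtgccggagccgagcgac
The Bmp5 window held 1 CAGAC match on the reverse strand, written GTCTG, and was the least GC-rich of these windows, at 42.8% G or C. Id3 held 2 CAGAC matches, Id4 1 GGCGCC match, and Id2 1 GGCGCC and 1 CANNTG match. No matches of different motifs overlapped in these windows, and TATAAA was found in none of them. Among all 32851 windows of this length in the table, 42.2% held CAGAC, 9.6% GGCGCC, 66.2% CANNTG and 12.4% TATAAA. A match is a run of letters and does not show that a factor binds there.

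Id4 was the Id gene that varied most between the tumors: it was highest in tumor 1 and lowest in tumor 2 on each of its 3 probe sets. Id4 is known from neural progenitors and glia. Its brightest probe set, 1423259_at, read 8.94, 7.56, 8.22 and 8.03 in tumors 1, 2, 4 and 5 (8.19 ± 0.58, SD, n = 4), a range of 2.62-fold. On 1450928_at the signals were 8.49, 6.53, 7.35 and 7.11, and on 1423260_at they were 7.10, 5.57, 6.24 and 6.37. Tumor 1 therefore stood 3.89-fold above tumor 2 on 1450928_at and 2.90-fold on 1423260_at, while tumors 4 and 5 lay between them on every probe set.

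Each tumor was then set against the other 3 with limma, in a fit over all 8498 genes past the filter. Passing meant an adjusted p (Benjamini-Hochberg) under 0.05 with at least a 2-fold difference, a test of whether a tumor lies outside the spread of the rest and not of a population of tumors. In tumor 1, Id4 was 2.01-fold above the other tumors (8.94 against 7.94 ± 0.34, SD, n = 3), but did not pass (log2 difference 1.01, SE 0.25, limma adjusted p = 0.11). In tumor 2 the log2 difference was -0.84 (SE 0.35, limma adjusted p = 0.795). Leaving out tumor 4 or tumor 5 brought Id4 past the test in tumor 1 (limma adjusted p = 0.00874 and 0.0102), and over all alternatives the adjusted p lay between 0.00874 and 0.478.

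The other Id genes varied less, and not together. Id1 read 7.17, 7.56, 7.47 and 7.16 in tumors 1, 2, 4 and 5 (7.34 ± 0.21, SD, n = 4). Id2 read 10.83, 10.57, 10.49 and 10.21 on 1435176_a_at (10.53 ± 0.26, SD, n = 4), and Id3 read 7.25, 7.65, 7.89 and 8.00 (7.70 ± 0.33, SD, n = 4). Id2 and Id4 were thus highest in tumor 1, in which Id3 was lowest, and Id1 was highest in tumor 2, in which Id4 was lowest. The other Id2 probe set past the filter, 1422537_a_at, was also highest in tumor 1, at 9.52, but lowest in tumor 2, at 9.03. None of these differences passed in any tumor. For Id3 in tumor 1, the log2 difference was -0.60 (SE 0.20, limma adjusted p = 0.252), and for Id2 in tumor 5 it was -0.42 (SE 0.20, limma adjusted p = 0.957).

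**Figure D1:**
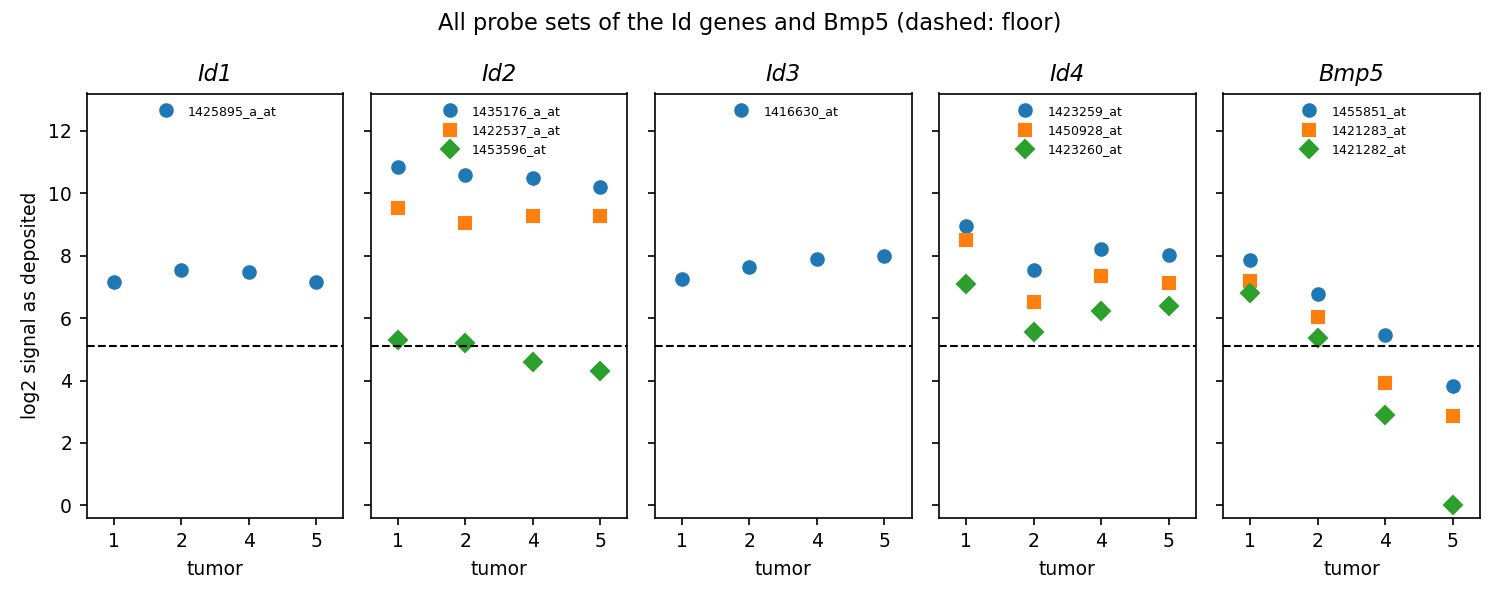
Log2 signal as deposited (y axis) in tumors 1, 2, 4 and 5 (x axis) for every probe set of Id1 to Id4 and Bmp5; each point is 1 array and the dashed line is the floor of 5.12. Id4 was highest in tumor 1 and lowest in tumor 2 on 3 of 3 probe sets, and Bmp5 had the order tumor 1, 2, 4, 5 on 3 of 3.

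Among the ligands, Bmp5 was the BMP whose signal left the low range, and it differed widely between tumors. Its probe set 1455851_at read 7.88, 6.77, 5.48 and 3.84 in tumors 1, 2, 4 and 5 (5.99 ± 1.74, SD, n = 4). The signals of 1421283_at were 7.21, 6.03, 3.94 and 2.87, and those of 1421282_at 6.80, 5.36, 2.91 and 0.00, the last being the lowest value the table holds. All 3 probe sets gave the tumors the same order, with tumors 1 and 2 above the floor on each and tumor 5 below it on each. Tumor 4 was below the floor on 1421283_at and 1421282_at, so its order against tumor 5 there rests on noisy signals. The measured SD includes low values that are noisy on the log scale, so folds were taken with signals raised to the floor. On 1455851_at, tumor 1 was 2.15-fold above tumor 2, 5.28-fold above tumor 4 and at least 6.76-fold above tumor 5. Bmp5 passed the filter through tumors 1 and 2, so its wide range is in part a condition of its being counted.

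Set against the other 3 tumors, tumor 1 was at least 4.25-fold higher in Bmp5, and this did not pass (log2 difference 2.09, SE 0.53, limma adjusted p = 0.117). The other 3 tumors were themselves spread over 5.36 ± 1.47 (SD, n = 3) as measured. Without tumor 4 or tumor 5 it passed (limma adjusted p = 0.00168 and 0.00215), and the adjusted p over all alternatives lay between 0.00168 and 0.583. Because Bmp5 is tested only through the tumors in which it is high, its passing in these fits is given as a description and supports nothing. Without tumor 2, the mean of Bmp5 fell short of the filter, as it did without tumor 1.

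The marker lists of other cell types give the setting of these differences. The summed linear signal of the 8 Purkinje and inhibitory neuron markers measured was 3895, 302.2, 562.9 and 286.4 in tumors 1, 2, 4 and 5, and that of the 7 oligodendrocyte markers 5339, 777.7, 1615 and 745.9. For the 11 markers of mature granule and other neurons it was 7005, 1870, 2840 and 2599. Tumor 1, highest in Bmp5 and Id4, was thus highest in these lists too: all 8, all 7 and all 11 markers measured were highest there. Of the neuron markers, Gad2, Grin2c and Slc17a7 were below the floor in every tumor. Tumor 2 was above tumor 4 in Bmp5 on 3 of 3 probe sets and below it in each of these sums. On 1421283_at and 1421282_at tumor 4 was below the floor, and tumor 2 was at least 1.88-fold and 1.18-fold above it.

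The 10 astrocyte and Bergmann glia markers summed to 8518, 6490, 7455 and 7785 in tumors 1, 2, 4 and 5, with all 10 above the floor in every tumor. The sum was highest in tumor 1 and lowest in tumor 2, as Id4 was, but 6 of the 10 markers were highest in tumor 1 and 6 lowest in tumor 2. Gfap went the other way, at 6.55, 7.52, 7.69 and 7.40, lowest in tumor 1. The 11 markers of fibroblasts, meninges and mural cells summed to 1828, 1207, 899.8 and 1210, with 8 of 11 highest in tumor 1 and Col1a1 and Foxc1 below the floor in every tumor. The part of these cell types in the Bmp5 and Id4 differences was not tested. In whole tumor tissue, fewer cells of a type and less RNA per cell cannot be told apart.

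**Figure D2:**
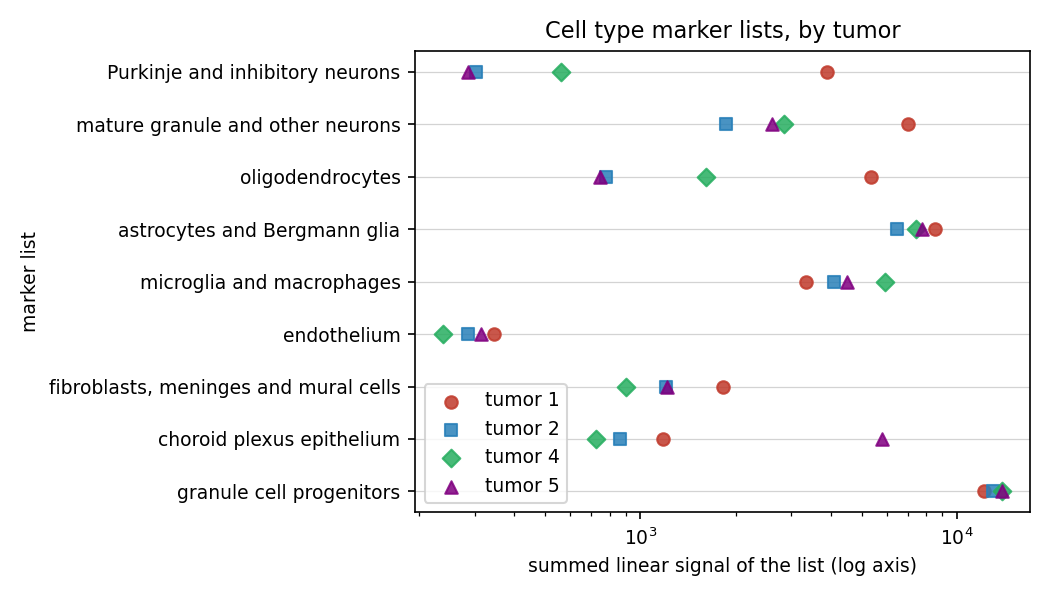
Summed linear MAS5 signal (x axis, log scale) of 9 lists of cell type markers (y axis) in each tumor; each point is 1 array and uses the brightest probe set of each marker. Tumor 1 was highest in the neuron and oligodendrocyte lists, and tumor 5 in the choroid plexus list at 5798.

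The other ligands gave little variation or low signals. Tgfb2, a TGF-beta isoform, was above the floor throughout, at 8.70, 8.66, 8.43 and 8.52 in tumors 1, 2, 4 and 5 (8.58 ± 0.13, SD, n = 4). Bmp1, which despite its name is a metalloprotease that processes procollagen and the BMP antagonist chordin, read 6.54, 6.31, 6.38 and 6.65 (6.47 ± 0.16, SD, n = 4). On its brightest probe set, neither varied by as much as 1.3-fold. The Tgfb2 probe set 1438303_at, whose mean was below the filter, had a range of 1.41-fold. Bmp2, Bmp4, Bmp15, Gdf3, Gdf11, Inhbb and Tgfb3 lay below the floor in all tumors. Bmp7 did too, but closely, with its highest signal at 5.11 in tumor 2. Gdf9 was above the floor in some tumors, at 5.49, 5.05, 5.16 and 5.38. A signal below the floor does not show that a transcript was absent.

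All 4 type II receptors and 4 of 7 type I receptors passed the filter. Acvr1b, a type I receptor for activins, was highest in tumor 1, at 8.44, 7.95, 7.91 and 8.13 in tumors 1, 2, 4 and 5 (8.11 ± 0.24, SD, n = 4). By brightest probe sets, Bmpr1a, a type I receptor for BMPs, varied least among the receptors, at 8.95, 8.92, 9.10 and 9.10 (9.02 ± 0.09, SD, n = 4). Its probe set 1425493_at, also past the filter, had a range of 1.32-fold. In tumor 1, Acvr1b had a log2 difference of 0.45 (SE 0.17, limma adjusted p = 0.348). The remaining type I receptors past the filter, Acvr1 and Tgfbr1, had ranges of 1.43-fold and 1.28-fold.

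Among the type II receptors, Acvr2b, which binds activins and several GDFs and BMPs, read 6.24, 6.55, 5.84 and 5.84 in tumors 1, 2, 4 and 5 (6.12 ± 0.35, SD, n = 4). Tgfbr2, the type II receptor for TGF-beta, read 7.66, 7.90, 7.83 and 7.50 (7.72 ± 0.18, SD, n = 4). Both were highest in tumor 2, where Acvr2b had a log2 difference of 0.58 (SE 0.26, limma adjusted p = 0.795). Bmpr2, the type II receptor for BMPs, had a range of 1.65-fold, and Acvr2a one of 1.36-fold. Tgfbr2 is also known from microglia, whose 10 markers measured had a summed linear signal of 3335, 4093, 5929 and 4501 in tumors 1, 2, 4 and 5, with 9 of 10 highest in tumor 4 and Itgam below the floor in every tumor. The part of that cell type in the Tgfbr2 signal was not tested.

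Of the 8 receptors past the filter, 6 were highest in tumor 2 and 5 were lowest in tumor 5, where 26.5% of all genes were highest in tumor 2 and 22.1% lowest in tumor 5. With quantile normalization the counts were the same, beside 26.4% and 22.1% of all genes. With each array centred on its median they were 5 and 4, beside 22.4% and 15.9% of all genes. The differences were small: the ranges of the receptors lay between 0.17 and 0.72 on the log2 scale, and none passed the test in any tumor. Acvr1c and Acvrl1, a type I receptor known from endothelium, lay below the floor in all tumors, as did 6 of the 8 endothelial markers measured. Bmpr1b was above it in tumors 1 and 5 (5.37 and 5.30). The co-receptor Tgfbr3 was above it in the same tumors (5.50 and 5.71), and the pseudoreceptor Bambi in tumor 1 (5.29).

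All 5 signal-carrying Smads measured passed the filter, and 4 of them varied little between tumors on their brightest probe sets. Smad4, the shared partner, read 10.35, 10.41, 10.43 and 10.45 in tumors 1, 2, 4 and 5 (10.41 ± 0.04, SD, n = 4), the smallest SD among the 20 genes in the values as deposited. Smad1, Smad2 and Smad5 had ranges of 1.11-fold, 1.10-fold and 1.22-fold. The other Smad2 probe set past the filter, 1442062_at, had a range of 1.53-fold and was highest in tumor 2, at 6.77. By brightest probe sets, Smad3 varied most of the 5, at 8.59, 9.15, 8.76 and 8.52 (8.76 ± 0.28, SD, n = 4), a range of 1.55-fold. It was highest in tumor 2, at 9.15 against 8.62 ± 0.13 in the other 3 (SD, n = 3), and did not pass (log2 difference 0.53, SE 0.16, limma adjusted p = 0.795). The inhibitory Smads, which are induced by the pathway and dampen it, were low: Smad6 was below the floor in every tumor, and Smad7 above it in tumor 1 only (5.72, against 4.95, 5.07 and 4.69 in tumors 2, 4 and 5). The secreted antagonists measured, Chrd, Fst and Grem1, lay below the floor in all tumors.

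**Figure D3:**
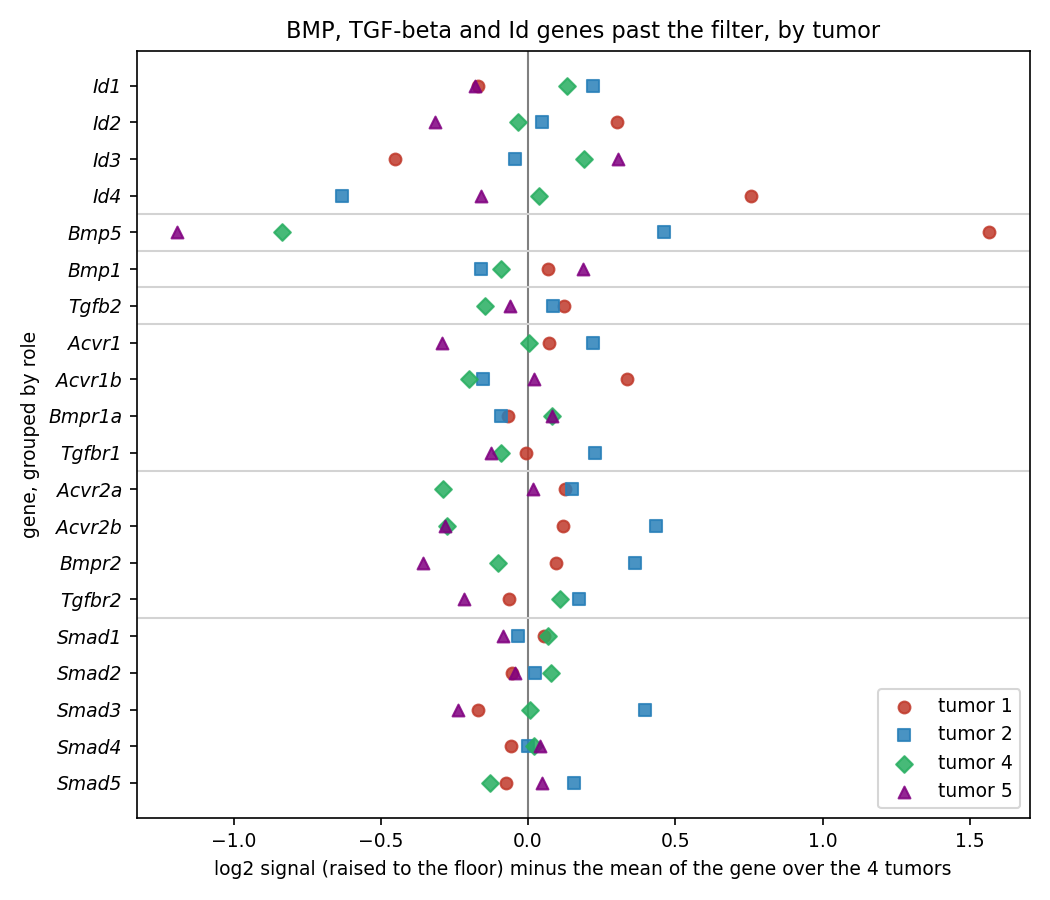
Log2 signal, raised to the floor, minus the gene's own mean over the 4 tumors (x axis) for the 20 genes past the filter (y axis, grouped by role); each point is 1 tumor. Bmp5 and Id4 are spread widely, while the points of Smad1, Smad2 and Smad4 lie close together.

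Over the 20 genes, the median range between tumors was 0.42 on the log2 scale, and over all 8498 genes it was 0.38. A range of 2-fold or more was found in 2 of the 20 genes, Bmp5 and Id4, and in 5.15% of all genes. Bmp5 passed the filter through tumors 1 and 2, in which it is high, so its part in this and the following counts is a description only. For the 18 remaining genes the range lay between 0.10 and 0.76. Without tumor 1 or without tumor 2, none of these genes reached 2-fold (0 of 19 in both cases), Bmp5 no longer passing the filter, and the share of all genes was lower too, at 1.59% without tumor 1 and 4.02% without tumor 2. In no tumor did any of the 20 genes pass the test (0 of 20 in each), while 1.29% of all genes passed in tumor 1 and 0% in tumors 2, 4 and 5. At an unadjusted p under 0.05, limma gave 4 of the 20 in tumor 1 (Id4, Bmp5, Id3 and Acvr1b) and 11.2% of all genes, and 1 of the 20 in tumor 2 (Smad3) and 5.84% of all genes. In tumors 4 and 5 it gave 0 of the 20, and 0.553% and 3.6% of all genes. Without an intensity trend in limma, 0 of 20 passed in each tumor as well. Leaving out tumor 4 or tumor 5 made 2 of the 20 pass in tumor 1, Bmp5 and Id4, while the count over all genes went up as well, to 177 without tumor 4 and 204 without tumor 5, against 110 with all tumors.

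**Figure D4:**
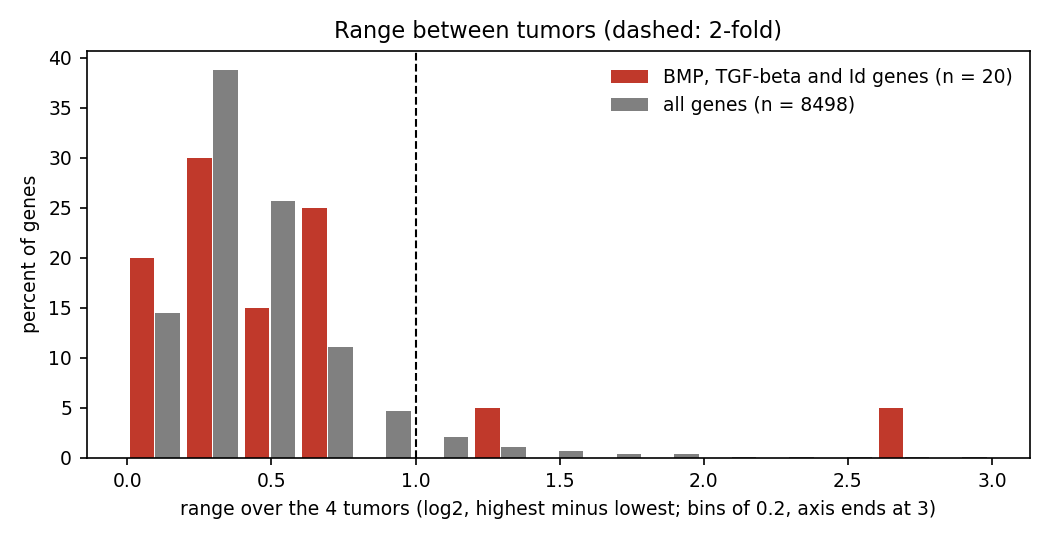
Percent of genes (y axis) by the range of their log2 signal over the 4 tumors (x axis, bins of 0.2), for the 20 BMP, TGF-beta and Id genes and for all 8498 genes past the filter. Only Bmp5 and Id4 among the 20 lie to the right of the dashed line at 2-fold.

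Taken by tumor, the median log2 difference of the 20 genes from the other tumors was 0.082, 0.16, -0.022 and -0.14 in tumors 1, 2, 4 and 5, where that of all genes was -0.036, -0.017, 0.0037 and 0.038. In tumor 2, 13 of the 20 were higher, and in tumor 5, 7 of the 20, where 47.2% and 56.9% of all genes were. In tumors 1 and 4, 11 and 10 of the 20 were higher, where 43.7% and 50.8% of all genes were. Centring each array on its median moved the median of all genes by -0.10 in tumor 1 and turned the median of the 20 genes there to -0.019, and that in tumor 4 to 0.048. The median stayed above 0 in tumor 2 (0.12) and below 0 in tumor 5 (-0.078). That of all genes was then -0.14, -0.049, 0.074 and 0.10 in tumors 1, 2, 4 and 5. As deposited, the 20 genes thus had a median above that of all genes in tumors 1 and 2. In tumors 4 and 5 it was below. Centring moves all genes of an array by the same amount, so it could hardly change this comparison.

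How far probe sets of a gene follow each other bears on such small differences. Of the 20 genes, 8 had several probe sets past the filter. These named the same highest tumor for 3 of the 8 genes (Id2, Id4 and Smad5) and the same lowest tumor for 4 (Id4, Smad1, Smad4 and Smad5). For Bmpr1a, whose 4 probe sets past the filter put the tumors in different orders, the order is thus not settled by these data.

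Other genes of the pathway were read from a list of 49 symbols of regulators, matrix-bound carriers, co-receptors and E proteins, of which 39 were on the table and 21 past the filter. None passed in any tumor in either direction (0 of 21 in each), and 2, 2, 0 and 2 had an unadjusted limma p under 0.05 in tumors 1, 2, 4 and 5, where 11.2%, 5.84%, 0.553% and 3.6% of all genes did. Ltbp3, a protein that binds latent TGF-beta in the matrix, read 8.84, 9.55, 9.07 and 8.35, highest in tumor 2 and lowest in tumor 5, a range of 2.29-fold. Rgma, a BMP co-receptor, read 5.63, 6.17, 6.29 and 6.67, a range of 2.06-fold.

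A pair of listed genes below the filter also had a range of at least 2-fold. Sostdc1, a secreted antagonist of BMP and WNT signalling, read 6.67 in tumor 5 and 1.20, 2.10 and 1.54 in tumors 1, 2 and 4, so that tumor 5 was at least 2.93-fold higher. In the same tumor the 7 choroid plexus markers summed to 5798, against 1180, 865.5 and 726.6 in tumors 1, 2 and 4, with 5 of 7 highest there and Aqp1 below the floor in every tumor. The part of that cell type in the Sostdc1 signal was not tested. Tgfbi, a matrix protein induced by TGF-beta, read 4.87, 5.71, 6.31 and 6.36 in tumors 1, 2, 4 and 5, lowest in tumor 1.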

How the data were processed

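Total RNA of 4 tumors was measured, 1 array each. The authors deposited log2 signals, made with MAS5 per the submitters' processing notes; the MAS5 version is not given in the sources read, nor its scaling target. MAS5 subtracts a local background and does not align distributions between arrays. The table used here held 29304 probe sets and no detection calls. Genes were named from the platform annotation, and only from probe sets with 1 symbol.

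Control probe sets (61) were left out. The floor of 5.12 came from the 40th percentile of each array (their median), and the filter the median of all means, 5.87, which kept 13525 probe sets and 8498 genes. Contrasts of a tumor with the other 3 were fitted in limma (3.58.1, R 4.3.3; lmFit, eBayes with an intensity trend), with Benjamini-Hochberg adjustment over all genes; the script was tested on simulated data. The lone tumor is assumed to vary like the rest, and nothing says whether the tumors come from separate litters. The number of arrays limits the precision. The genes and lists were chosen with earlier results of these data known.

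Values in every tumor are given for Id1 to Id4, for genes that passed or had a range of 2-fold or more, and for the most and least variable gene of each role; Smad7, Bmp7, Gdf9, Bmpr1b, Tgfbr3 and Bambi were added after their values were seen. Alternatives were the floor at the 25th or 50th percentile, no filter or one at the 75th percentile, quantile or median scaling, the mean of probe sets, no _x_at or _s_at probe sets, limma without a trend, each tumor left out, and, chosen after seeing the data, no floor.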

Additional observations from a re-analysis of the deposited data

How the results depend on the processing

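No paired analysis was possible because the labels put the 4 tumors in a single group. The count of genes passing in tumor 1 was 0, and between 0 and 2 when another tumor was left out, where the count over all genes also went up, to 208, 177 and 204 without tumors 2, 4 and 5, against 110 with all tumors; in tumors 2, 4 and 5 it was 0 under every alternative run. Id4 and Bmp5 in tumor 1 crossed the threshold without tumor 4 and without tumor 5, and stayed short of it under the other alternatives that gave them a value. With a tumor left out, the test rests on 3 arrays. Bmp5 passed the filter through tumors 1 and 2, in which it is high, so its crossing is a description only. The count with a range of 2-fold or more was 2, fell to 1 with the filter at the 75th percentile, which Bmp5 does not reach, and lay between 0 and 2 with a tumor left out. Without a filter all 39 genes were tested, and with a tumor left out 19 or 20 passed the filter. Of the named differences, that of Smad4 in tumor 1 changed sign, at 0.0125 with quantile normalization and -0.079 as reported; the other 12 kept their sign. Low signals limit what can be said of the 19 genes below the filter.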
